A study of Rattus norvegicus with 52 samples.

Results

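Ribosomal protein genes encode the protein subunits of the cytosolic ribosome. They were taken here as the 98 rows, of 22081 genes in the count table, whose symbol begins with Rpl or Rps and a digit, or with Rplp and a digit. The same pattern matched 10 Rps6k rows, which encode kinases and were left out. The table covers 52 single cells labelled as macrophages, cut by laser from arterial aneurysm lesions of 3 male Sprague Dawley rats aged 7 weeks. Rat 1 gave 5 cells, rat 2 gave 23 and rat 3 gave 24. Every rat had its left common carotid artery joined to the right one, its left renal artery tied, and a diet high in salt with 3-aminopropionitrile, an inhibitor of the collagen cross-linking enzyme lysyl oxidase. Cells were marked by injected nanoparticles carrying the dye DiI, which phagocytic cells take up, and all belonged to 1 group with no control artery.

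The ribosome has a small subunit, whose proteins carry the prefix Rps and which decodes the messenger RNA, and a large subunit, whose proteins carry the prefix Rpl and which joins amino acids. The Rplp genes encode the stalk of the large subunit, which recruits elongation factors. The proteins of a subunit are mostly needed in equal number, so their genes are known as a group whose transcripts are abundant and move together in most animal cells. In mammals their transcripts begin with a run of C and T bases, the terminal oligopyrimidine motif, through which growth signals control their translation.

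Of the 98 rows, 66 had a symbol used by 1 row, 14 shared a symbol with another row (written here with _1, _2 and so on, as in the table), 17 were duplicate or like genes by symbol, and 1, Rps19bp1, encodes a binding partner of a ribosomal protein. The 66 single rows held 85.1% of the member counts. By prefix 60 rows belonged to the large subunit and 38 to the small one. Fau, Rpsa and the 2 Rack1 rows, which encode ribosomal proteins or a ribosome component, are not matched by the rule and are given separately.

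Promoter sequences show a feature that the choice of members did not use. Of the 66 single-row members, 52 had 1 promoter entry in RefSeq (rat build GRCr8). A run of at least 8 C or T bases on the gene's strand, within 20 bases before to 25 bases after the annotated start, was present in 40 of these 52 (76.9%), against 17.3% of all 33469 promoter entries. Members were limited to those with 1 entry, while the background of all entries, here and below, was not. The motif CCGGAAG, the core bound by ETS transcription factors, stood on either strand of the window from 250 bases before to 50 after the start in 17 of 52 (32.7%), against 8.75% of all entries. The motif AAGATGGC, a YY1 core, stood on either strand in 3 of 52 (5.77%), against 3.17%. Both motifs were also searched as their reverse complement, and CCGGAAG in that form can share bases with a C and T run. A match is a description of letters, not a bound site, and the motifs were chosen after sequences of members had been looked at. The 4 members below had the highest correlation with the rest of the group among those with an entry. They are shown from 150 bases before to 20 after the start, on the gene's strand, 5′ to 3′, and capitals mark the C and T run at the start or a CCGGAAG match.
Rplp0, GRCr8 chr12:46718371-46718540, minus strand: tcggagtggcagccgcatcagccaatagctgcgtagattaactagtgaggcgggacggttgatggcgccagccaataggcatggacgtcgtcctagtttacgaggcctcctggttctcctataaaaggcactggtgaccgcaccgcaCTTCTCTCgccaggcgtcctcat
Rpl41, GRCr8 chr7:1563478-1563647, minus strand: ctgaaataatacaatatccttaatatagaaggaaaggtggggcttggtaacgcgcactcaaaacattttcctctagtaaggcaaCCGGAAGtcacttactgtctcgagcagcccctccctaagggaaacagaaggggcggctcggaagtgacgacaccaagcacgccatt
Rpl10a, GRCr8 chr20:6390383-6390552, plus strand: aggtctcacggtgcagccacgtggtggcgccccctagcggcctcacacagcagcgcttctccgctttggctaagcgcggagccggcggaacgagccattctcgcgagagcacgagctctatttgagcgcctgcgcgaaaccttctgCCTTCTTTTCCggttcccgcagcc
Rps27, GRCr8 chr2:177964587-177964756, minus strand: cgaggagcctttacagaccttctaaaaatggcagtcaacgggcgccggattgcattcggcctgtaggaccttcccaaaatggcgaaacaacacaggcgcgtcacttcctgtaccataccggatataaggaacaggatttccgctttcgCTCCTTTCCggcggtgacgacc
Rplp0, Rpl10a and Rps27 carry the run across their annotated start, and Rpl41 has no run of that length there but 1 CCGGAAG match upstream.

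Libraries were shallow, with 1538 to 84848 counts per cell and a median of 15068. A cell held 384 to 5417 genes with a count. The labelled cell type had uneven marker support. The 21 macrophage markers each had a count in at least 1 cell, but Cd68, a lysosomal glycoprotein, was found in 6 of 52 cells and Csf1r, the macrophage growth factor receptor, in 12. Per cell 19.0% ± 3.36 of the macrophage markers were found at 1 or more counts (SD, n = 3 rats). Beside them stood 22.6% ± 6.83 of 9 markers of endothelium, 24.4% ± 8.34 of 9 of fibroblasts and 25.1% ± 6.15 of 11 of smooth muscle. At 5 or more counts macrophage markers stood at 8.16% ± 4.48 and endothelial markers at 2.76% ± 2.12. Fibroblast markers stood at 6.21% ± 1.56 there and smooth muscle markers at 3.88% ± 2.82. In rat 2 fibroblast markers stood above macrophage markers (6.76% against 5.59%). In rat 3 fibroblast (7.41%) and smooth muscle markers (6.82%) did so (macrophage 5.56%). The most often found were Fcgr3a (35 cells), Mrc1 (33) and Cybb (16) for macrophages, Mylk (39), Acta2 (35) and Myocd (22) for smooth muscle, Col1a1 and Fbln1 (33 each) and Col3a1 (13) for fibroblasts, and Kdr (36), Nos3 (28) and Vwf (16) for endothelium. T cell markers (Cd3e, Cd8a and Lck first) summed to at most 3 counts in a cell, and of erythroid markers Slc4a1 was found in 30 cells and Hba-a1 and Hbb in 2 each. No molecular identifiers are recorded, so counts include copies made in amplification. The binomial intervals below treat the 52 cells as separate draws, and cover neither amplification nor differences between rats.

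Ribosomal protein genes took a small and very uneven part of the counts. They held 18923 of the counts pooled over all cells, or 1.86%. Per cell the share had a median of 1.07% and ran from 0% to 13.3%. Rat means were 1.55% in rat 1, 2.59% in rat 2 and 1.21% in rat 3, or 1.78% ± 0.718 (SD, n = 3 rats). Within rat 1 the 5 cells stood between 0.502% and 2.88%. Rat 2 ran from 0% to 13.3% with a median of 1.28%, and rat 3 from 0% to 6.26% with a median of 0.615%, so the range of rat 1 lay within those of the others. Rat 2 cell 27, the highest, had 17 members, and 1568 of its 2029 member counts fell on Rpl23a, a protein of the large subunit near the exit of the peptide tunnel.

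**Figure D1:**
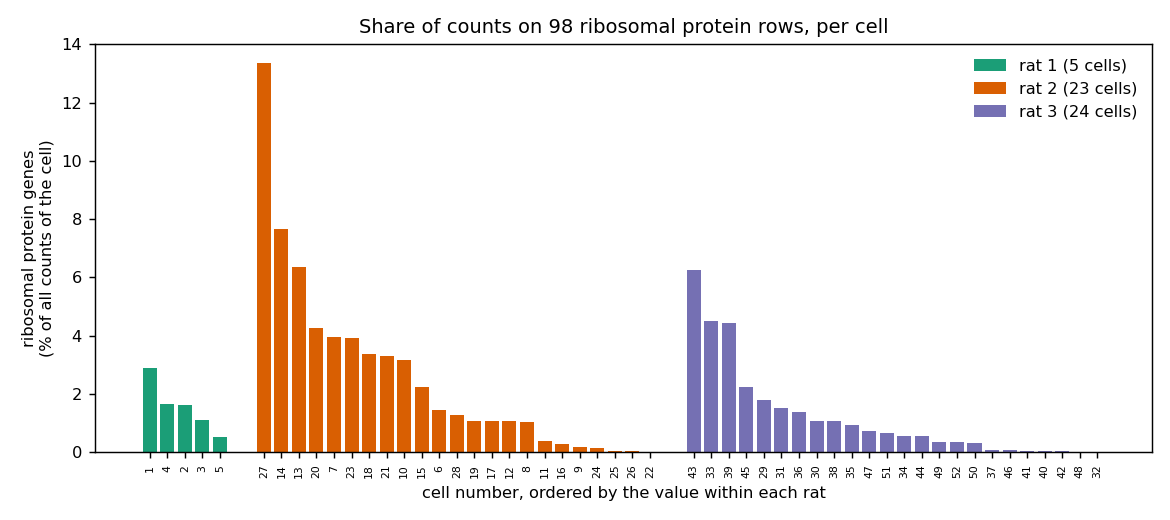
Percent of all counts of a cell that fell on the 98 ribosomal protein rows, 1 bar per cell, coloured by rat and ordered by value within each rat. Rat 2 cell 27 reached 13.3%, 12 cells had 3% or more, and 10 cells had under 0.1%.

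A few cells carried most of the signal. The 5 cells with the most member counts held 52.2% of them, while they held 16.3% of all counts. Rat 3 cell 43 had 2442 member counts and rat 3 cell 39 had 2346, followed by rat 2 cell 27, rat 3 cell 33 with 1695 and rat 2 cell 13 with 1367. At the other end 10 cells had less than 0.1% of counts on members. Rat 2 cell 22, with 3085 counts in all, and rat 3 cell 32, with 9050, had no member count. Low shares also occurred in deep libraries: rat 3 cell 41 had 15 member counts of 30271, and rat 3 cell 40 had 9 of 21685.

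The number of members found was also uneven, but its leading cells were only in part the same. Rat 3 cell 39 had 21 members and rat 2 cell 27 had 17, while rat 1 cell 4 had 48 members with 602 member counts. A cell held a median of 9 members at 1 or more counts, from 0 to 54. No member was found in 2 cells, 1 to 5 in 12 cells, 6 to 19 in 27 cells and 20 or more in 11 cells. The fullest sets were 54 members in rat 2 cell 13, 48 in rat 1 cell 4 and 47 in rat 3 cell 43, with 37, 25 and 38 of them at 5 or more counts. After each cell was thinned to 10000 counts, which kept 40 cells and left out 12, the count ran from 0 to 52 with a median of 9, against 11.5 in the same cells before thinning. A wide spread between cells thus remained at equal total counts, in the 40 cells deep enough to be thinned. The numbers of genes found and of molecules behind the counts were not matched.

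Member counts within a cell were spread unevenly over members. In 17 of the 50 cells with any member count, 1 member held 50% or more of the member counts, and the median share of the leading member was 37.3%. Some of the 17 had few member counts, such as rat 3 cell 48 with 2 and rat 2 cell 25 with 4. With 1 member found in each, a share of 100% was fixed there. Others had many, such as rat 2 cell 27 with 2029. The leading member was not the same gene from cell to cell: 28 different members led in 1 or more cells. Rpl41 led in rat 1 cell 1 with 89 counts and in rat 2 cell 13 with 183. Rps27 led in rat 1 cell 4 with 109 counts and in rat 2 cell 7 with 197. Rat 3 cell 43 was the most even, and its leading member, Rpl11, held 9.99% of its member counts.

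Single members were found in at most 26 of the 52 cells, yet often at 5 or more counts where found. Of the 98 members 10 had no count in any cell, 26 were found in 1 to 4 cells, 36 in 5 to 9, 22 in 10 to 19 and 4 in 20 or more. At least 5 cells were reached by 62 members (63.3%), against 43% of all genes, and at least 10 cells by 26 members (26.5%), against 20.7%. At 5 or more counts the picture differed. In at least 5 cells this level was reached by 35 members (35.7%), against 4.03% of all genes, and in at least 10 cells by 15 members (15.3%), against 2.02%. Genes differ in length, and no transcript lengths were used here, so counts are not ranked between genes.

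**Figure D2:**
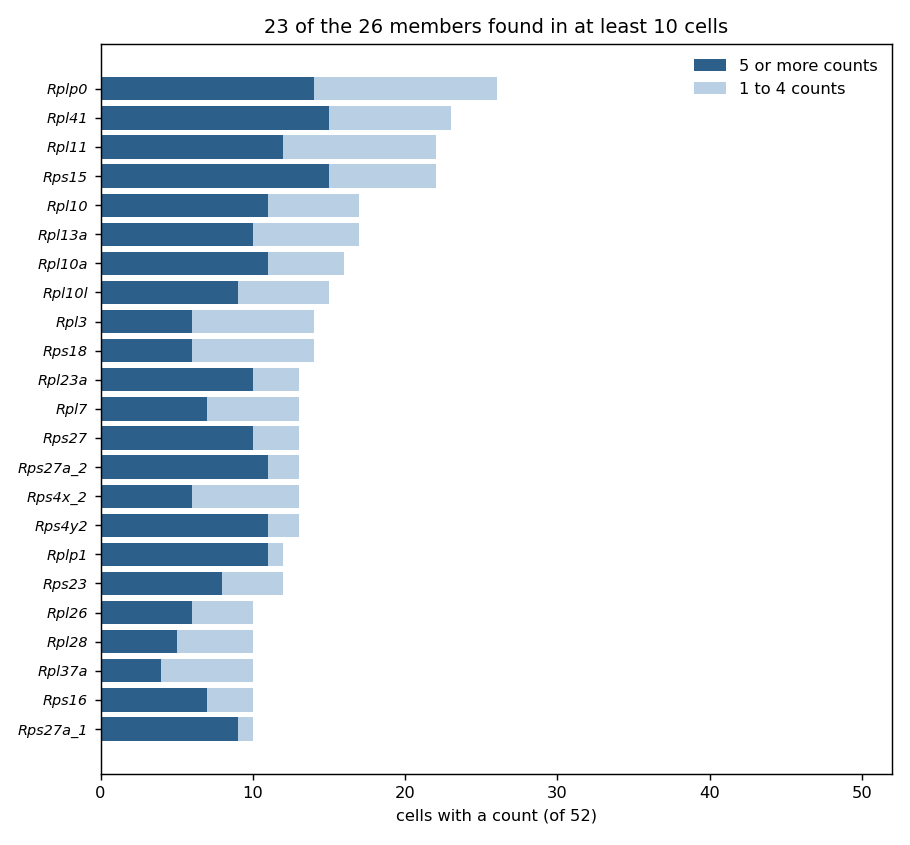
Number of cells, of 52, in which each of 23 of the 26 members found in at least 10 cells had a count, split into cells with 5 or more counts (dark) and with 1 to 4 counts (light). Rplp0 was found in 26 cells, 14 of them with 5 or more counts, and Rplp1 in 12 cells, 11 of them with 5 or more.

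Rplp0, the base of the stalk, was the most often found member. Its counts in the 5 cells of rat 1 were 6, 2, 0, 45 and 0. In rat 2 the lowest, median and highest counts were 0, 0 and 170, and in rat 3 they were 0, 0.5 and 104. Found in 26 cells (50.0%, exact binomial 95% interval 35.8 to 64.2 over cells), it had 5 or more counts in 14 of them. Rplp1 and Rplp2, the smaller stalk proteins that bind Rplp0 as pairs, were found in 12 and 8 cells. Rplp1 had 5 or more counts in 11 of its 12 cells and Rplp2 in 1 of its 8. The cells of Rplp1 and Rplp2 overlapped in 4, which is 33.3% of the Rplp1 cells and 50.0% of the Rplp2 cells.

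Among large subunit members, Rpl41, which encodes a very short peptide, was found in 23 cells. It had 89, 22, 0, 33 and 23 counts in the cells of rat 1, a median of 1 and a highest count of 183 in rat 2, and a median of 0 and a highest count of 181 in rat 3. Rpl11, which binds the p53 regulator Mdm2 when ribosome assembly is disturbed, was found in 22 cells. Its highest count, 244 in rat 3 cell 43, was 56.5% of all its counts. Rpl5, its partner in the same particle, was found in 8 cells. Rpl10 and Rpl13a were each found in 17 cells and Rpl10a in 16. Rpl13a had 0, 6, 0, 28 and 71 counts in the cells of rat 1, up to 106 in rat 2 and up to 89 in rat 3. Each of these members had cells at 0 in all 3 rats, so no rat was uniformly high or low.

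Rpl23a of the large subunit owed most of its counts to 1 cell. It had 1943 counts over 13 cells, and 80.7% of them lay in rat 2 cell 27. Over the 62 members found in at least 5 cells, the highest cell held a median of 49.4% of a member's counts, from 17.8% to 88.0%, against a median of 25.0% for all 9494 genes found in at least 5 cells. The coefficient of variation of CPM, a count scaled to the total of its cell, had a median of 3.69 for members and 3.02 for all such genes. Neither comparison was matched for count level. Members had 5 or more counts in a median of 59.4% of their cells, and the 9494 genes in 0%. Low counts hold down the share of the highest cell, so members are not shown to be more uneven than genes of like count.

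Among small subunit members, Rps15 was found in 22 cells. It had 30, 74, 0, 21 and 0 counts in the cells of rat 1, up to 57 in rat 2 and up to 43 in rat 3. Rps27 reached 197 counts and had a count in 13 cells. Rps6, the substrate by which growth signalling through S6 kinase is usually followed, was found in 3 cells with 10 counts in all, and Rps3, which also has a DNA repair activity, in 4 cells with 142 counts.

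The 10 members without any count were Rpl21_2, Rpl21_3, Rpl35a, Rpl35al1_1, Rpl35al1_2, Rpl36, Rpl7a_1, Rpl7a_2, Rps21 and Rps4x_1 (10.2% of members, against 16% of all genes). With 0 of 52 cells, the exact binomial 95% interval for cells holding a count reaches 6.85%, and the simpler limit of 3 cells of 52 is 5.77%. Of these 10 rows 7 are rows with a shared symbol or like genes, and Rpl35a, Rpl36 and Rps21 are single rows of core subunits. Rpl12, Rpl30, Rpl34 and Rpl38 were found in 1 cell each.

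Near-identical copies limit what each row can tell, since reads that fit more than 1 copy can be dropped or split. RefSeq lists 911 further symbols that add a like or pseudogene ending to 1 of the 66 single-row symbols, from 1 to 36 per member with a median of 14. Across these 66 genes, which are not independent, Spearman's rho between the number of such symbols and the number of cells was -0.19. Rpl10l, a copy of Rpl10 that works in the testis in mice, was found in 15 cells, and 14 of these also had Rpl10 (93.3% of the Rpl10l cells and 82.4% of the Rpl10 cells). Rpl3l, the copy of Rpl3 restricted to striated muscle, was found in 8 cells, 4 of them shared with Rpl3, and 193 of its 238 counts lay in rat 3 cell 38. Rps4y2 and Rps4x_2 were found in 13 cells each and shared 3. Rps27a_1 and Rps27a_2, rows of the gene for a ubiquitin fusion protein, were found in 10 and 13 cells and shared 3. Rps27l was found in 5 cells, Rpl7l1 in 6, Rpl39l in 3, and Rpl22l1 and Rpl36al in 1 each. Rps19bp1 was found in 2 cells with 4 counts.

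The genes outside the rule differed among themselves. Rpsa, a small subunit protein, was found in 12 cells, and the 2 rows of Rack1, a scaffold on the small subunit, in 11 and 7. Fau, a ubiquitin-like fusion to a small subunit protein, had no count in any cell.

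Ribosomal protein genes were compared with other gene lists within the same cells, with the rat as replicate. At 1 or more counts a cell held 15.7% ± 5.26 of the members and 12.6% ± 3.88 of all genes (SD, n = 3 rats). The difference was 7.82 points in rat 1, 5.64 in rat 2 and -4.05 in rat 3. Its mean was 3.14 ± 6.32 points, positive in 2 of 3 rats, with a 2-sided exact permutation p of 0.5 and an adjusted p of 0.625. It was smaller than the spread between rats. Without the 3 cells with the most members it was 0.486 points, 0.794 without rat 1, 1.88 without rat 2 and 6.73 without rat 3, and in cells thinned to 10000 counts it was 5.58 (exact p = 0.25).

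At 5 or more counts a cell held 8.94% ± 2.72 of the members and 1.99% ± 0.785 of all genes (SD, n = 3 rats). The members stood 9.35 points higher in rat 1, 6.71 in rat 2 and 4.79 in rat 3, a mean of 6.95 ± 2.29 points in 3 of 3 rats. The exact p was 0.25, the smallest that 3 rats allow, and 0.417 after Benjamini-Hochberg adjustment over 10 such exact tests. No contrast could therefore pass a threshold of 0.05. The rat values of the members, from 6.93% to 12.0%, did not overlap those of all genes, from 1.14% to 2.69%.

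**Figure D3:**
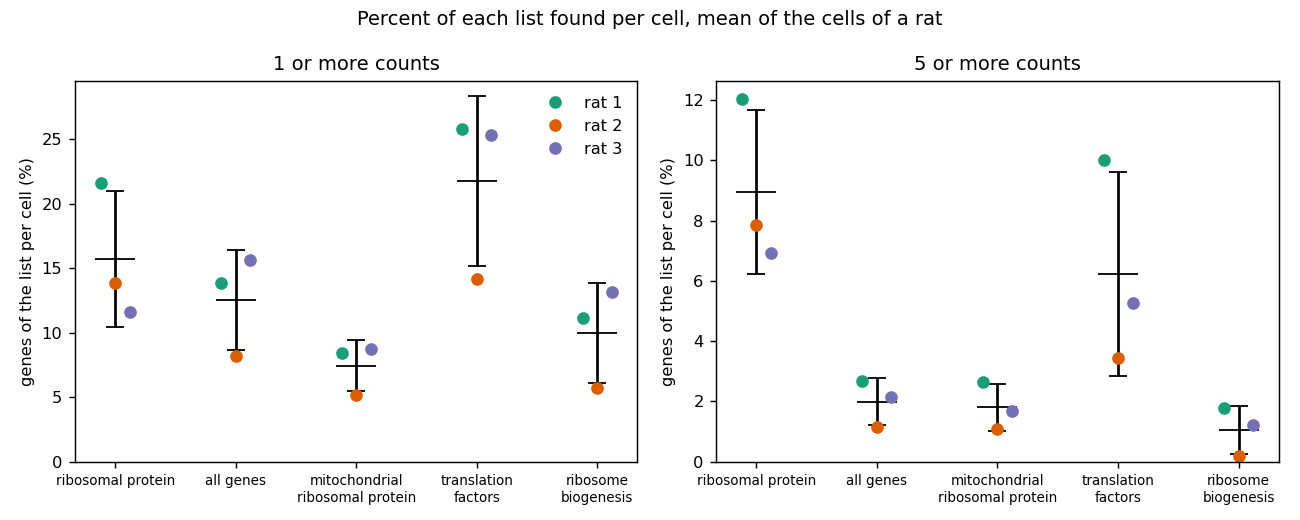
Percent of the genes of each list that had 1 or more counts (left) or 5 or more counts (right) in a cell, averaged over the cells of a rat. Points are the 3 rats, and the line and bar are their mean and SD. At 5 or more counts the 3 rats stand at 6.93% to 12.0% for ribosomal protein genes and at 1.14% to 2.69% for all genes.

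The same ribosomal protein genes were set against the proteins of the other ribosome. The 76 mitochondrial ribosomal protein genes (Mrpl and Mrps), which are nuclear genes whose products work in mitochondria, were found at 7.45% ± 2.00 per cell at 1 or more counts and at 1.81% ± 0.778 at 5 or more. The cytosolic genes stood 8.25 ± 5.20 points higher at 1 or more counts and 7.14 ± 2.11 points higher at 5 or more, in 3 of 3 rats each (SD, n = 3 rats, exact p = 0.25, adjusted p = 0.417). Mrps35 was the exception in its list, found in 48 cells with 5 or more counts in 37, against at most 24 cells for the other mitochondrial members.

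Against factors that act with the ribosome the sign depended on the threshold. The 38 measured translation factors were found at 21.8% ± 6.57 per cell at 1 or more counts. The ribosomal protein genes stood -4.16 points from them in rat 1, -0.35 in rat 2 and -13.7 in rat 3. The mean difference was -6.07 ± 6.89 points, smaller than the spread between rats (exact p = 0.25, adjusted to 0.417). That difference was -1.04 points in cells thinned to 10000 counts (exact p = 1) and -2.25 points without rat 3. At 5 or more counts the factors stood at 6.23% ± 3.39 and the ribosomal protein genes 2.71 ± 1.49 points higher in 3 of 3 rats (SD, n = 3 rats, exact p = 0.25, adjusted p = 0.417). Pabpc1, the poly(A)-binding protein, was found in 39 cells, Eif4b in 30 and Eif3i in 27, while the elongation factors Eef2 and Eef1a1 were found in 14 and 13 cells. The 45 measured ribosome biogenesis genes stood at 9.99% ± 3.85 at 1 or more counts and 1.06% ± 0.802 at 5 or more. The ribosomal protein genes were 5.71 ± 6.39 points higher in 2 of 3 rats at 1 or more counts (exact p = 0.5) and 7.88 ± 2.28 points higher in 3 of 3 rats at 5 or more (exact p = 0.25, adjusted p = 0.417). Ubtf, a factor of ribosomal RNA transcription, was found in 21 cells with at most 4 counts, and Dkc1 and Wdr43 in 14 each. Of 10 measured genes outside the ribosomal protein rule that also carry the oligopyrimidine motif, Tpt1 was found in 25 cells and Naca in 21, and a cell held 25.4% ± 6.44 of them at 1 or more counts and 13.1% ± 6.03 at 5 or more (SD, n = 3 rats).

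The contrast between the thresholds can be read directly from the counts. There were 691 pairs of a member and a cell with a count, and 57.7% of them had 5 or more counts, with a median of 7. Over all genes 14.4% of such pairs had 5 or more, with a median of 2. The share was 57.0% for the 13 mitochondrially encoded genes, 24.0% for translation factors, 21.3% for mitochondrial ribosomal protein genes and 8.41% for biogenesis genes. Of the 62 members with a count in 5 cells or more, 44 (71%) had 5 or more counts in 50% or more of their cells, against 4.37% of the 9494 such genes in the table. Rplp1 (11 of 12 cells), Rps27a_1 (9 of 10), Rps4y2 and Rps27a_2 (11 of 13 each) were among the members most often at 5 or more, and Rplp2 (1 of 8) and Rpl7l1 (0 of 6) among the least.

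The large and small subunits did not differ beyond the spread between rats. At 1 or more counts a cell held 16.4% ± 6.95 of large and 14.6% ± 2.71 of small subunit members (SD, n = 3 rats). The difference of 1.82 ± 4.46 points was positive in rat 1 (6.96) and negative in rat 2 (-0.94) and rat 3 (-0.56), with an exact p of 1. At 5 or more counts it was 0.755 ± 3.74 points, again positive only in rat 1 (exact p = 1). Without rat 1 the differences were -0.75 and -1.39 points. The large subunit rows held 62.1% of the member counts pooled, with 61.6% in rat 1, 65.5% in rat 2 and 59.5% in rat 3, and made up 60 of the 98 rows. Large subunit counts exceeded small ones in 31 cells, small exceeded large in 19, and both were equal in 2. Across the 52 cells the summed large and small subunit levels, as log2(CPM + 1), had a Pearson r of 0.588 and a Spearman rho of 0.626. The values were 0.461 and 0.474 in rat 2 (23 cells) and 0.745 and 0.706 in rat 3 (24 cells). Levels of 1 cell share a library and its depth, so these are descriptions.

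Members varied together more than genes at large, though weakly. For each member found in at least 5 cells, its level as log2(CPM + 1) was correlated over 52 cells with the summed level of the other members. The median Pearson r was 0.267 over 62 members, against -0.0262 for the correlation of all 9494 genes with the summed members. It was above 0 for 60 of 62 members and for 42.5% of all genes, and above 0.25 for 36 of 62 members (58.1%), against 1.26% of all genes. Within rat 2 the median was 0.281 over 48 members found in at least 3 cells, and within rat 3 it was 0.279 over 43. Counts this sparse hold a correlation down or let 1 cell make it, and cells of 1 rat share their source. The 9494 genes were not matched to the members for count level. Members had 5 or more counts in a median of 59.4% of their cells, against 0% for the 9494 genes.

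**Figure D4:**
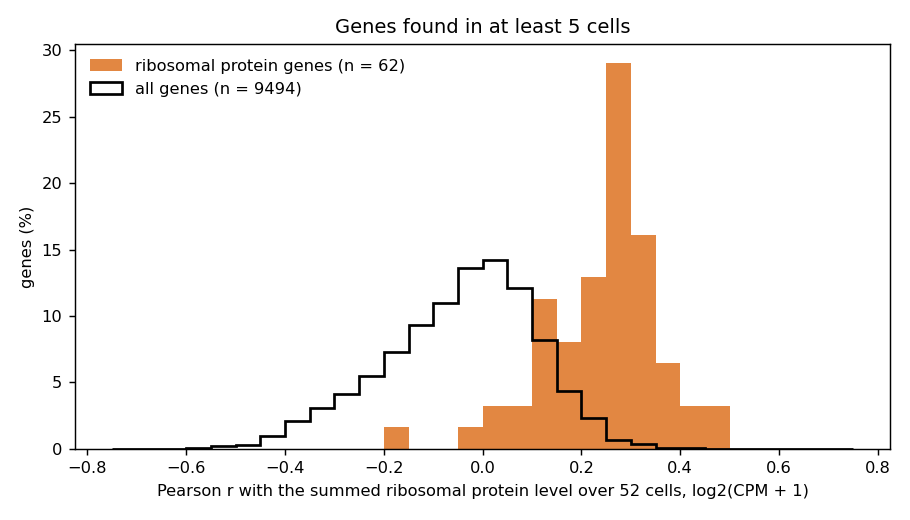
Histogram of Pearson's r over 52 cells between a gene's level and the summed ribosomal protein level, both as log2(CPM + 1), in percent of genes found in at least 5 cells. Filled bars are 62 ribosomal protein genes, each left out of its own sum, with a median of 0.267, and the line is all 9494 genes with a median of -0.0262.

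Among the members that followed the group best were Rplp0 (r = 0.471), Rpl41 (0.460), Rpl10a (0.436), Rps27 (0.403), Rpl15 (0.398), Rpl23a (0.369), Rplp1 (0.356), Rps28 (0.347) and Rpl32_1 (0.341). Rplp0 had an r of 0.515 within rat 2 and 0.419 within rat 3, and Rpl41 had 0.409 and 0.488. The lowest were Rpl32_2 (-0.17), Rpl6 (-0.04), Rps27l (0.0127), Rps2 (0.0444) and Rps7 (0.0544), found in 5 to 7 cells each. The pair Rpl32_1 and Rpl32_2, rows with 1 symbol, thus stood at opposite ends, with 9 and 6 cells of which 2 were shared.

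Pairs of members repeated this. Over 1891 pairs the median r was 0.166, against 0.0505 over all pairs of the 9494 genes, and 91 pairs (4.81%) were above 0.5, against 0.292% of all pairs. The median was 0.202 for pairs within the large subunit, 0.110 within the small one and 0.154 for 1 of each. The highest pair was Rpl18 and Rpl4, at 0.943 with 5 shared cells, of 6 cells with Rpl18 and 5 with Rpl4. It stood at 0.930 without the cell that added most, rat 3 cell 43. Rpl35 and Rpl4 stood at 0.833, Rpl18 and Rpl35 at 0.778, Rpl23 and Rpl35 at 0.775, Rpl18 and Rpl23 at 0.758 and Rpl23 and Rpl4 at 0.732, all with 5 or 6 shared cells. All of these pairs combine Rpl4, Rpl18, Rpl23 and Rpl35, so they are not separate observations. For Rpl35 with Rpl4, and for Rpl23 with Rpl35 or Rpl4, the cell that added most was rat 2 cell 18. It had the smallest library, with 1538 counts, and held 1 count of Rpl4, 3 of Rpl35 and 5 of Rpl23. Rpl10 and Rpl10l, at 0.814 with 14 shared cells, are copies that can share reads. Rpl32_1 and Rps27 (0.749, 8 shared cells) and Rpl27a and Rps13 (0.748, 5 shared cells) were also among the 10 highest. Without the cell that added most, these 9 values lay between 0.666 and 0.930.

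**Figure D5:**
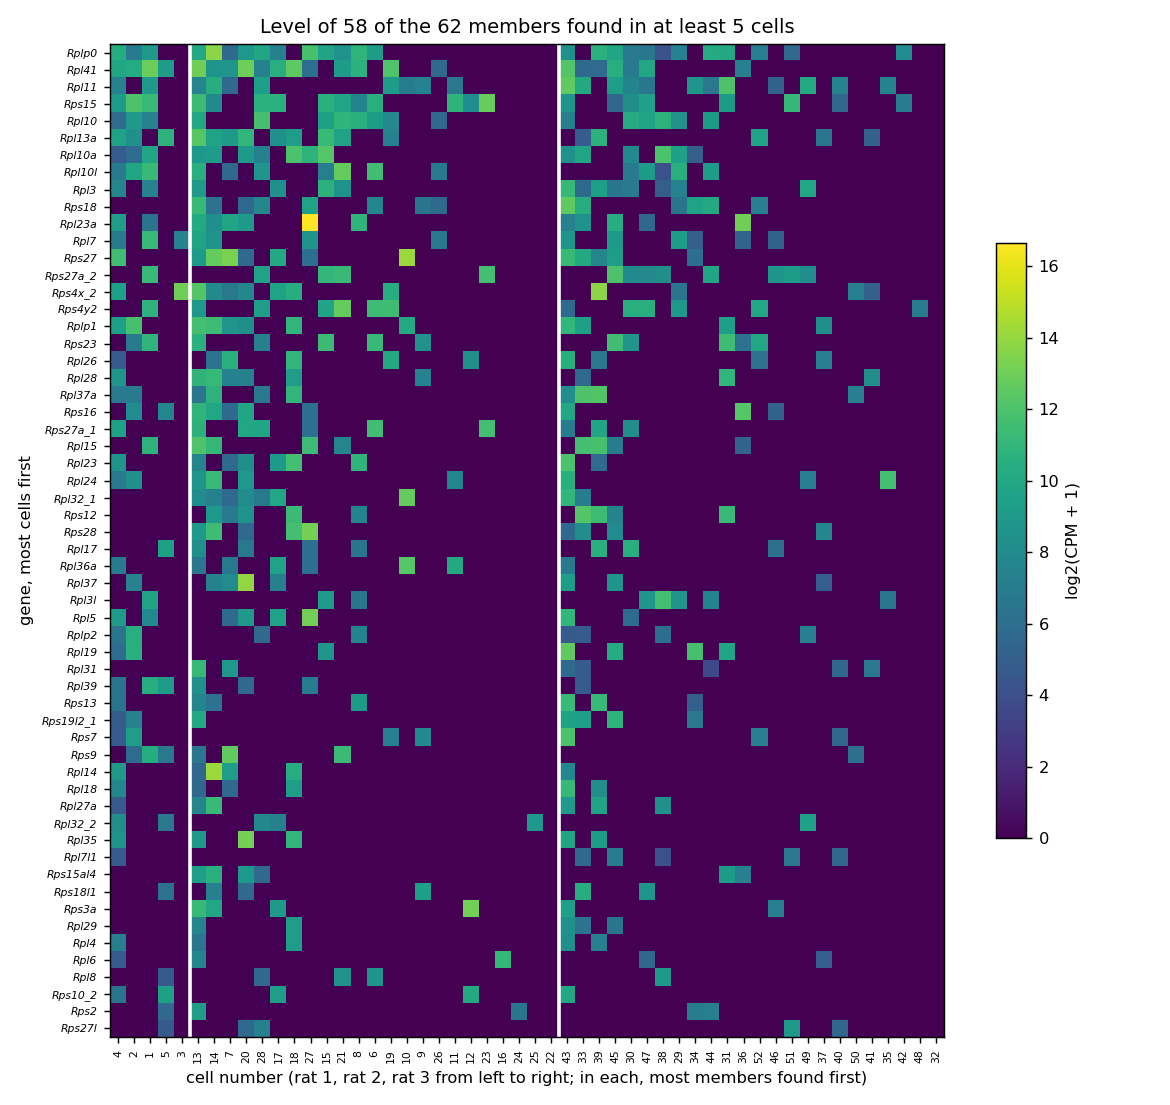
Level, as log2(CPM + 1), of 58 of the 62 members found in at least 5 cells (rows, most cells first) in the 52 cells (columns), with rats 1 to 3 from left to right and, in each, the cell with most members first. Filled columns of a few cells, such as rat 1 cell 4, rat 2 cell 13 and rat 3 cell 43, stand beside cells with single bright members or none.

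Genes outside the group with the most similar pattern were ranked by r with the summed members over 52 cells. The unnamed feature AABR07015081.2 (0.505) and Apoe (0.503), which encodes a lipid carrier, came first. Polr2d, an RNA polymerase subunit, stood at 0.439, Tmsb4x, an actin-binding thymosin, at 0.413, LOC100360413 at 0.408, the lysosomal protease Ctsb at 0.395, the intermediate filament gene Vim at 0.380, Actb at 0.375, LOC108352650 at 0.366 and AABR07029467.2 at 0.365. Apoe was found in 20 cells and Tmsb4x in 18.

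Other readouts of the cells were set beside the ribosomal protein genes. The number of members found had a Spearman rho of 0.353 with the total counts of the cell, while that of mitochondrial ribosomal protein genes had 0.768 (n = 52 cells). Within rat 2 (23 cells) the values were 0.316 for members and 0.777 for mitochondrial ribosomal protein genes, and within rat 3 (24 cells) the order was the other way, with 0.544 for members and 0.475 for mitochondrial ribosomal protein genes. The share of counts on members had a rho of 0.0132 with total counts over all cells, 0.104 in rat 2 and 0.288 in rat 3. With the number of genes found its rho was -0.21 over all cells, but -0.0731 in rat 2 and 0.0165 in rat 3, so the pooled value did not hold within either rat. The percent of found genes that stood under 5 counts, which ran from 71.9% to 94.1% per cell, had a rho of -0.56 with the number of members found, with -0.50 in rat 2 and -0.77 in rat 3. The summed level of the 38 translation factors had an r of 0.388 with that of the members, 0.403 in rat 2 and 0.515 in rat 3. That of the mitochondrial ribosomal protein genes had -0.23, and that of biogenesis genes 0.110.

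Macrophage markers moved with the members in part. The number of the 21 markers at 5 or more counts had a Pearson r of 0.599 and a rho of 0.371 with the number of members found, with 0.711 and 0.477 in rat 2 and 0.258 and 0.168 in rat 3. Without the 3 cells with the most members the values were 0.424 and 0.280. The summed level of the 21 markers, 0 to 1567 counts per cell, had an r of 0.0395 and a rho of 0.249 with the summed members. Rat 2 cell 13 and rat 1 cell 4 had 6 and 11 markers at 5 or more counts, while rat 3 cell 43 had 1. The summed levels of other lists had an r of -0.28 for endothelial, -0.16 for erythroid, -0.09 for smooth muscle, 0.0988 for fibroblast and -0.01 for T cell markers. In the same order their rho was -0.22, -0.30, -0.06, 0.237 and -0.18. On summed levels fibroblast markers thus stood near macrophage markers, and a link particular to macrophage markers was not shown. The part of the marker lists in the spread of ribosomal protein counts was not tested. Fewer transcripts per cell and poorer recovery of them cannot be told apart here.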

How the data were processed

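SMART-Seq Single Cell Plus libraries were made from single laser-cut cells, per the labels' protocols. The authors deposited unnormalized counts, 1 whole number for each gene symbol in each cell. The sources used here name no aligner, counter, build or strand setting for counting, and the sequencer's sample sheet lists a TruSeq Stranded mRNA assay where the labels give the SMART-Seq kit, so strand and antisense overlap are unsettled. Columns were mapped to cells and rats by title, and 0 columns were left over. Members and lists were chosen with earlier results of these data known.

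A gene was found at 1 or more counts. CPM used the column total, and levels were log2(CPM + 1). Percents per cell were averaged within a rat, then over 3 rats, and 10 contrasts were tested by exact permutation, flipping the signs of the rat differences (2-sided, Benjamini-Hochberg adjusted). Of 175 list genes 156 had a row. Correlations used genes found in at least 5 cells. The labels give 1 group, so edgeR served only for TMM scaling. The scripts were tested on simulated data.

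Named genes followed a fixed rule: members found in most and fewest cells, highest and lowest correlations, top pairs, copies, and leading list genes. Its part on counts per coding length could not be applied. Other genes named, such as Rpl5, Rps3, Rps6 and the elongation factors, were chosen after their values were seen. Some genes that the rule names are not reported here. Alternatives covered each rat left out, small libraries, cell weights, thinning, duplicates, rare genes, pseudocounts and scaling. Tools were Python 3.11.15, numpy 2.4.6, pandas 2.3.3, scipy 1.17.1, matplotlib 3.10.9, R 4.3.3 and edgeR 4.0.16.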

Additional observations from a re-analysis of the deposited data

How the results depend on the processing

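Of 125 recomputed values, none of the 8 contrasts between ribosomal protein genes and other lists changed sign, nor did the share of counts leave the spread between rats (1.38% to 2.12%, main value 1.78%). The difference between large and small subunits turned round in 2 alternatives at 1 or more counts and in 4 at 5 or more. It kept its sign in 8 and 6. Without single rats it lay between -0.75 and 3.20 points at 1 or more counts and between -1.39 and 2.01 at 5 or more. With each cell weighing the same it was -0.0051 and -0.77 points. At 5 or more counts it was -0.35 points in cells thinned to 10000 counts and -0.61 without the 3 cells with the most members, an alternative added after the data were seen. At 1 or more counts it was 4.51 points with members of 1 row each and 4.08 with genes found in at least 3 cells. Each had an exact permutation p of 0.25, the smallest that 3 rats allow. At 5 or more counts these alternatives gave 2.59 and 1.68 points. The cause of the changes in sign was not tested. The median correlation of members with the rest ran from 0.218 to 0.328 under its alternatives, the lowest without those 3 cells. With 5 cells, rat 1 gave a median of 0.663 over 11 members, which widens the spread between rats. Depth limits every value: a gene at 0 in a cell was not detected there, and is not shown to be absent.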
